A study of Drosophila melanogaster with 2 samples.

Results

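The regions described here are the 208 CG42726-eGFP regions that lay between genes and away from any gene start. They were found in the conservative list of 2752 regions, of which 2747 were on the main arms (X, 4, 2L, 2R, 3L and 3R). A region was kept when its summit, the base of highest signal, was more than 500 bp from every annotated transcript start and inside no annotated gene. The 208 regions were 7.57% of the 2747 (exact 95% interval 6.61 to 8.63). Replicate 1's own list alone gave 156 such regions and replicate 2's gave 134. The others of the 2747 were 2188 promoter regions, with a summit up to 500 bp from a start, and 351 regions inside genes. Whole Drosophila melanogaster embryos aged 0 to 24 hours were used for chromatin immunoprecipitation with sequencing (ChIP-seq). The 1 group had 2 biological replicates of a single transgenic line, CG42726-GFP, in which the CG42726 protein carries an enhanced green fluorescent tag (eGFP) that was precipitated with antibody to GFP. All cells of the embryo were pooled, so a region bound in few cells and one bound weakly in many cannot be told apart. The lists held no read counts, the depth of each library is therefore unknown, and there was no second group to test against. Coordinates are on dm6.

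DNA between genes holds enhancers, which raise transcription of a gene from a distance, and boundary (insulator) elements, which limit the reach of enhancers and separate domains of the chromosome. In flies boundary elements are bound by proteins such as CTCF and Su(Hw), zinc finger proteins that each recognise a long DNA sequence, while the DNA replication-related element (DRE) and its binding factors are best known from promoters of genes used in most cells. CG42726 is an annotated protein-coding gene without a name of its own. A match to a known sequence in the results below is a description of the DNA, not evidence of which protein was bound.

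The DNA under the strongest regions differed from one to the next. Each line gives the summit base with 50 bases to either side, from the plus strand of the RefSeq release 6 assembly, for the 8 strongest regions whose sequence is shown. Capitals mark a match to 1 of 14 searched sequences or to 1 of the 5 leading 8-mers given further on.
lncRNA:CR44773 / Kr-h1, chr2L:6081390-6081490: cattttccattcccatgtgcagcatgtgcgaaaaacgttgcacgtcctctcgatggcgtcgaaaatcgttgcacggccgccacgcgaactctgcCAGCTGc
Ptp4E / lncRNA:CR44833, chrX:4956049-4956149: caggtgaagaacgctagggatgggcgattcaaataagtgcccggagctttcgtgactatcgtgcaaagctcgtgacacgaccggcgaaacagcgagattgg
CheB93a / CheB93b, chr3R:21408518-21408618: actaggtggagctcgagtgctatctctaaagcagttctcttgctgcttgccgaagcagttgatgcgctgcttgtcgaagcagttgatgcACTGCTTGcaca
asRNA:CR44018 / CG6465, chr3R:10675289-10675389: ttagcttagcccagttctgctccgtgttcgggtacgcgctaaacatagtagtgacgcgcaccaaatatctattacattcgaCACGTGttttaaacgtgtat
foxo / Npc2b, chr3R:14088966-14089066: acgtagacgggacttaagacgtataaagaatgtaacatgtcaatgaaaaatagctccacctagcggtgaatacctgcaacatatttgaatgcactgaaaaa
CG3168 / RpL17, chrX:6741218-6741318: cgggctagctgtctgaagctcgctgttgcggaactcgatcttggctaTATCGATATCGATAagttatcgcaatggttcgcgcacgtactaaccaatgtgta
CG41099 / CG42402, chr3R:4052889-4052989: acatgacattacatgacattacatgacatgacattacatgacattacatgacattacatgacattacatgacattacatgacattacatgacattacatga
sNPF-R / CG14186, chr3L:20097427-20097527: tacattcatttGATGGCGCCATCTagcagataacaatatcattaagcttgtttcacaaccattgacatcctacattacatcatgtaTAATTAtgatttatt
The region next to RpL17 held the DRE sequence TATCGATA at 2 overlapping positions, and the region between sNPF-R and CG14186 held a stretch that contains 4 of the leading 8-mers, some of them on the minus strand. The region between CG41099 and CG42402 was a run of a short tandem repeat across the whole line.

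The regions farthest from any start differed in the same way, and 2 of the 3 farthest are shown because the other is the tandem repeat above. The line for CG43759 and Diedel3 and the added line for upd2, the strongest region with that sequence, hold TGCATACTT, which is part of the Su(Hw) recognition sequence.
Marf1 / RpL5, chr2L:22487050-22487150: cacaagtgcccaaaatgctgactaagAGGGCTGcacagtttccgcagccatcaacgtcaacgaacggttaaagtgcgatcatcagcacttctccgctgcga
CG43759 / Diedel3, chrX:19028739-19028839: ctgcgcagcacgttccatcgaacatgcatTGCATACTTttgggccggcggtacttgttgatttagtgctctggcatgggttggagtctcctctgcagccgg
lncRNA:CR45622 / upd2, chrX:18239436-18239536: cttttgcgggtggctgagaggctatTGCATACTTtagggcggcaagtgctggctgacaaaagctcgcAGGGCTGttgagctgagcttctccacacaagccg

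A few 8-base sequences were at the summit in many more regions than in flanks 200 to 250 bp away. The summit window reached 50 bp to either side, the flanks together held 100 bases, and both strands were read. AGATGGCG was at the summit of 29 regions (13.9%, exact 95% interval 9.54 to 19.4) and in the flanks of 1. GATGGCGC was at 25 summits and in the flanks of 2, ATGGCGCC at 14 and 0, and TGGCGCCA at 14 and 0. These 4 overlap one another, and AGATGGCGC is close to the core of the fly CTCF recognition sequence. Any of the 4 was at 37 summits (17.8%, interval 12.8 to 23.7) and in the flanks of 2 regions. The same 4 were at 7.41% of summits inside genes, at 2.24% of promoter summits and in 0.62% of 357246 consecutive windows of the summit window's length cut from the bases that the rule would keep. ACTGCTTG, which does not overlap them, was at 17 summits (8.17%) and in the flanks of 1, against 4.56% of summits inside genes, 1.55% of promoter summits and 0.252% of the windows. Without replicate 1 it was at 15.7% of the summits, and within 25 bp of the summit 8.17% of the regions held any of the overlapping 4. The 5 were picked by their excess in these regions, so the excess is a description with no test.

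The bases around the matches show how far the likeness extends. Each line reads the strand on which the match was found, with 16 bases to either side, for the 4 strongest regions that hold it and whose sequence is shown, and capitals mark the match.
sNPF-R / CG14186, chr3L:20097427-20097466, minus strand: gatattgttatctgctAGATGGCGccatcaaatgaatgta
soti / cv-c, chr3R:14391433-14391472, minus strand: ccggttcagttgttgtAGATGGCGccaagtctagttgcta
Sid / snu, chr3R:28672406-28672445, minus strand: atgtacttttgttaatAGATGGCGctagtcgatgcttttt
Sox21a / Sox21b, chr3L:14111628-14111667, plus strand: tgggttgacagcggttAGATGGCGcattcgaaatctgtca
CheB93a / CheB93b, chr3R:21408591-21408630, plus strand: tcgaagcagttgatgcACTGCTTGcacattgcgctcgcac
tara / bor, chr3R:16260571-16260610, plus strand: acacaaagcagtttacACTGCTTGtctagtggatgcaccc
Tsp68C / Hml, chr3L:13845460-13845499, plus strand: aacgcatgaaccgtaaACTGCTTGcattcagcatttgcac
CG14082 / fz2, chr3L:19140547-19140586, plus strand: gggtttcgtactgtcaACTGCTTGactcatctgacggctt
All 4 lines with AGATGGCG went on with C, and 2 of them with CC. Among the lines with ACTGCTTG, those of CheB93a and tara also held AGCAGT before the match.

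Of the 14 sequences that were searched by name, 9 had a higher share at summits between genes than at promoters. Some of the 9 were higher still inside genes, such as ACACACAC (5.13%, against 2.40% between genes), and others were lower there. Except for TGCATACTT, the interval of each of the 9 held the promoter share. TGCATACTT alone had an interval above its promoter share, and it had the highest share between genes. It was at 12 summits between genes (5.77%, interval 3.02 to 9.86) and in 3 flanks, against 3 summits inside genes (0.855%), 3 promoter summits (0.137%) and 0.24% of the windows. Without replicate 2 the share was 1.92%. The DRE sequence TATCGATA, which is also its own reverse complement, stood the other way. It was at 7 summits between genes (3.37%, interval 1.36 to 6.81) and in 1 flank, against 335 promoter summits (15.3%) and 0.216% of the windows. Its share was 2.24% without replicate 1 and 5.13% without replicate 2. AGGGCTG was at 10 summits (4.81%, against 3.70% of promoter summits) and in 2 flanks, but at 0 summits without replicate 2 and at 2.99% without replicate 1. CACGTG was at 6 summits (2.89%, against 1.69% of promoter summits) and in 2 flanks, and at 0.746% without replicate 1. GGTCACAC was at 3 summits and in 0 flanks, TGACTCA at 4 and 0, and GTTCGANNC at 2 and 0. TAATTA was at 6 summits (2.89%, against 7.42% of the windows) and in 26 flanks, and runs of 8 adenines at 5 and in 17. The remaining ones were each at few summits: CAGCTG at 7 with 7 flanks, GAGAGAG at 4 with 2, ACACACAC at 5 with 2, AGATAAG at 2 with 3 and CAGGTAG at 1 with 0. Of these, CAGCTG was at 0.746% of the summits without replicate 1, against 3.37% in the list, and AGATAAG was at 0 when either replicate was left out. Base composition moved with these counts, since the median GC content was 44.6% at the summits and 33% in the flanks. It was 41.6% in the windows, and its part in the counts was not tested. The lines show, of the regions whose sequence is shown, the 4 strongest with TGCATACTT and with TATCGATA, drawn up as before.
lncRNA:CR45622 / upd2, chrX:18239445-18239485, plus strand: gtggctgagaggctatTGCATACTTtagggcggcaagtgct
kni / cmpy, chr3L:20711640-20711680, plus strand: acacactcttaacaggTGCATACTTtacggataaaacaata
Glut3 / lncRNA:CR45750, chr3R:16798779-16798819, minus strand: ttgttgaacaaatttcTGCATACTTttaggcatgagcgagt
Atet / lncRNA:CR44697, chr2L:4345864-4345904, minus strand: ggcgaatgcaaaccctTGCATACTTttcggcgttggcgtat
CG3168 / RpL17, chrX:6741249-6741288, plus strand: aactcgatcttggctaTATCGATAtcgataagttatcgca
lncRNA:CR44526 / SrpRbeta, chr3L:8718784-8718823, plus strand: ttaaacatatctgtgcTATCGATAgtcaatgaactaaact
CG4593 / CG12541, chrX:7015268-7015307, plus strand: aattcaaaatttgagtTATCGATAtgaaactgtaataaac
CG13970 / CG10651, chr2L:20120544-20120583, plus strand: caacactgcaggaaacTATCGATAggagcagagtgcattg

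Each sequence group was in a minority of the regions, and few regions held more than 1 group. Of the 208 regions, 33 held only the overlapping 8-mers, 15 only ACTGCTTG, 11 only TGCATACTT and 4 only TATCGATA. Another 5 held a pair of them, and 140 held none of these. Groups of this size would share few regions in any case, and whether they shared fewer than that was not tested. The median signal was 110 for the 37 regions with the overlapping 8-mers, 114 for the 17 with ACTGCTTG, 84.8 for the 12 with TGCATACTT and 107 for the 7 with TATCGATA, against 88.5 for the 140 with none. The plot of match positions shows the matches around the summits.

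**Figure D1:**
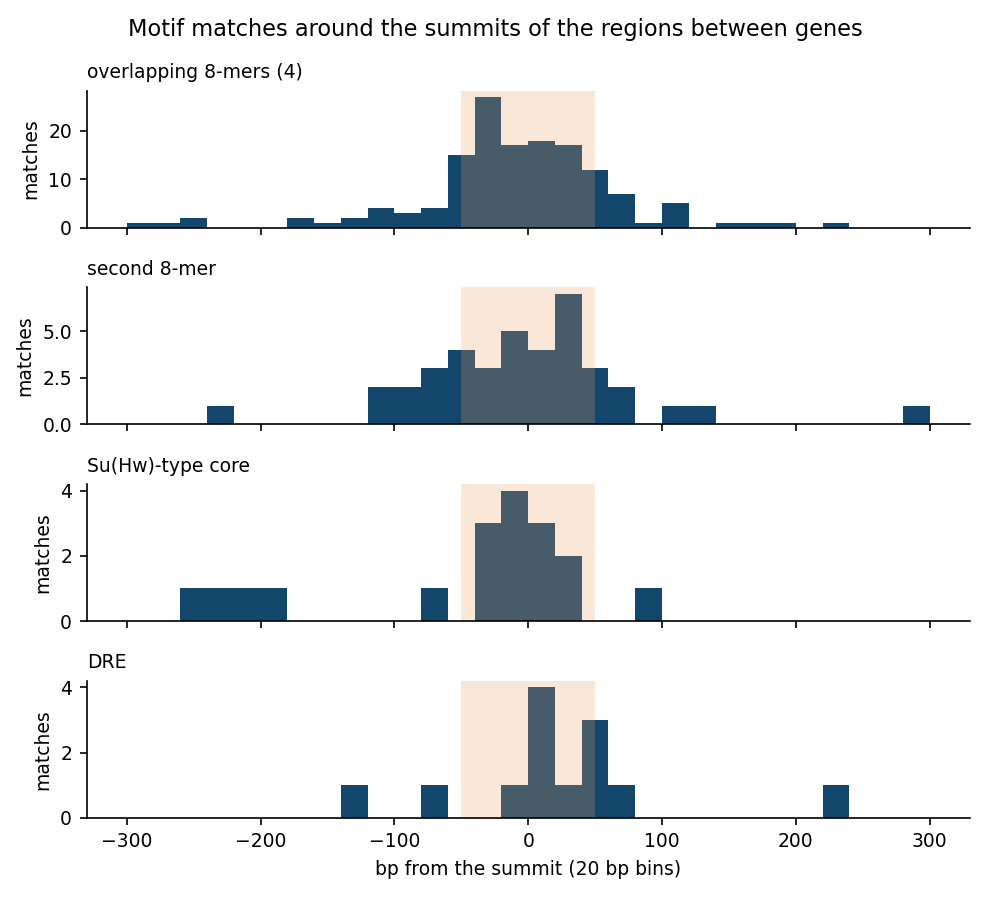
Number of motif matches in 20 bp bins by their distance from the summit in bp, for the 4 overlapping 8-mers, ACTGCTTG (second 8-mer), TGCATACTT (Su(Hw)-type core) and TATCGATA (DRE) in the 208 regions between genes. The shaded band is the summit window of 50 bp to either side, which holds 91 of 143, 24 of 39, 12 of 18 and 8 of 13 matches; a site can count for several of the overlapping 8-mers.

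Kr-h1, which encodes a zinc finger factor of the juvenile hormone response, had the strongest region by far. The region at chr2L:6081265-6081600 had a signal of 2843 in the list, 1582 in replicate 1 and 1256 in replicate 2, in a gap of 2474 bp between lncRNA:CR44773 and Kr-h1, 1163 bp upstream of the nearest Kr-h1 start. It was 11.3 times the second region. Both replicates were high here, and the remaining 207 regions had signals between 18.4 and 253. In the whole list the Kr-h1 region had rank 3 by signal, and the strongest region inside a gene had 13437. Another region of the list had its summit 1069 bp from that of the Kr-h1 region.

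Among the 208, the 3 regions ranked after the Kr-h1 region were carried by 1 replicate more than the other. The region past the end of Ptp4E, which encodes a receptor tyrosine phosphatase, had a signal of 253 in the list, 194 in replicate 1 and 50.5 in replicate 2. It was 100 bp wide, against 296 bp for 205 of the 208. The region between the chemosensory genes CheB93a and CheB93b, 77 bp wide, had 246 in the list, 52.7 in replicate 1 and 198 in replicate 2. The region between lncRNA:CR44282 and bs, the gene of the fly serum response factor, had 212 in the list, 59.6 in replicate 1 and 158 in replicate 2. All 3 replicate ratios thus exceeded 2, in favour of replicate 1 at Ptp4E and of replicate 2 at the other 2.

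The next regions were more even between replicates. The region between asRNA:CR44018 and CG6465 had a signal of 197 in the list, 109 in replicate 1 and 93.1 in replicate 2. The region between foxo, a forkhead factor of insulin signalling, and Npc2b, a sterol-binding protein gene, had 197 in the list, 100.5 in replicate 1 and 104 in replicate 2. The region 269 bp past the end of RpL17, which encodes a protein of the large ribosomal subunit, had 196 in the list, 93.3 in replicate 1 and 96.6 in replicate 2. The tandem repeat between CG41099 and CG42402 had 194 in the list, 93.4 in replicate 1 and 115 in replicate 2. The region between sNPF-R, a neuropeptide receptor gene, and CG14186 had 191 in the list, 87.5 in replicate 1 and 105 in replicate 2.

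Signals of the other strongest 20 lay between 163 and 187. The region between Wnt4 and wg, which encode secreted Wnt ligands, had a signal of 178 in the list, 69.4 in replicate 1 and 108 in replicate 2. The region between Hr51, a nuclear receptor gene, and unc-5, a netrin receptor gene, had 177 in the list, 100.9 in replicate 1 and 93.8 in replicate 2. The region between the homeobox gene Vsx1 and CG34435 had 180.5 in the list, 100.7 in replicate 1 and 83.9 in replicate 2. Others lay between for, which encodes a cGMP-dependent kinase, and Drgx, a homeobox gene (180.5), and between Su(z)2, a Polycomb-related gene, and CG13323 (171). Regions also lay next to soti and cv-c (185), Ebp and CG9380 (187), CG13970 and CG10651 (184), tara and bor (170), blo (167) and Ppa (163). Of the strongest 20, 19 were in both replicates' own lists.

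**Figure D2:**
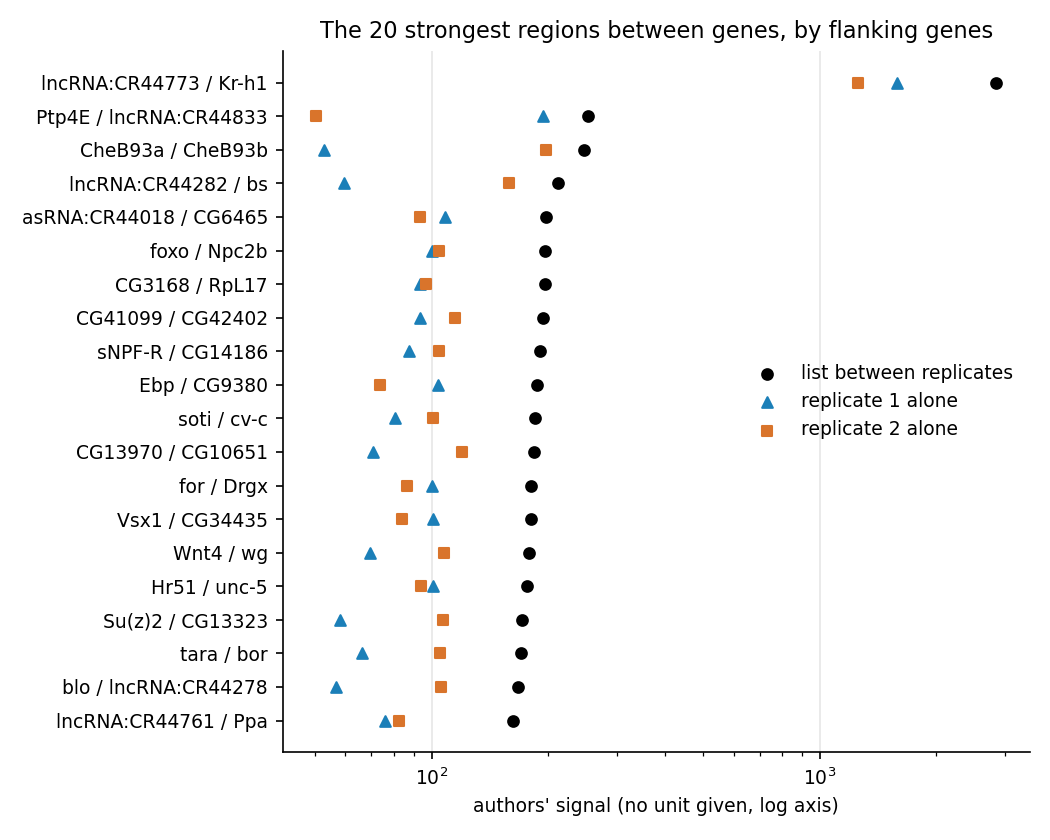
Authors' signal (log axis, no unit given) of the 20 strongest regions between genes, labelled by their flanking genes, in the list between replicates and in each replicate's own ranked list. The Kr-h1 region stands at 2843, the others between 163 and 253, and the replicates differ most at Ptp4E, CheB93a and bs.

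The median signal between genes lay between those of the other 2 kinds of region. The signal is the authors' own value, with no unit given, and serves to rank regions within a list. Ratios and comparisons across lists are given as read, with the depth of each library unknown. Its median was 95.9 for regions between genes (quartiles 74.6 and 126) against 76.7 for regions inside genes (67.9 and 102.0) and 109 for promoter regions (82.1 and 160). The quartiles of the 3 kinds overlapped. Within the 208 the rank correlation (Spearman) of signal was -0.02 with the distance to the nearest start and -0.05 with the length of the gap, across regions that share libraries.

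Of the regions between genes, 57 (27.4%) were in neither replicate's own list, against 21.1% of the whole list. The share was 47.6% for regions inside genes and 16.3% for promoter regions. A region was found in a replicate when at least 1 bp overlapped a region of that replicate's list. Replicate 1's list held 119 of the 208 (57.2%, interval 50.2 to 64.0) against 72.2% of the whole list. Replicate 2's list held 110 (52.9%, interval 45.9 to 59.8) against 52.2% of the whole list. Both lists held 78 (37.5%) against 45.6% of the whole list. Of the regions inside genes replicate 1 held 43.9% and replicate 2 30.8%, and of the promoter regions 78.2% and 55.6%. For 206 of the 208 regions a signal could be read in both replicates' ranked lists, where it lay at or above the 92.4th percentile in each. The ratio of replicate 1 to replicate 2 had a median of 1.01 (quartiles 0.773 and 1.31), was above 2 in 9 regions and below 0.5 in 8, and the rank correlation was 0.41. These values were read at regions that had passed a limit on agreement between replicates.

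**Figure D3:**
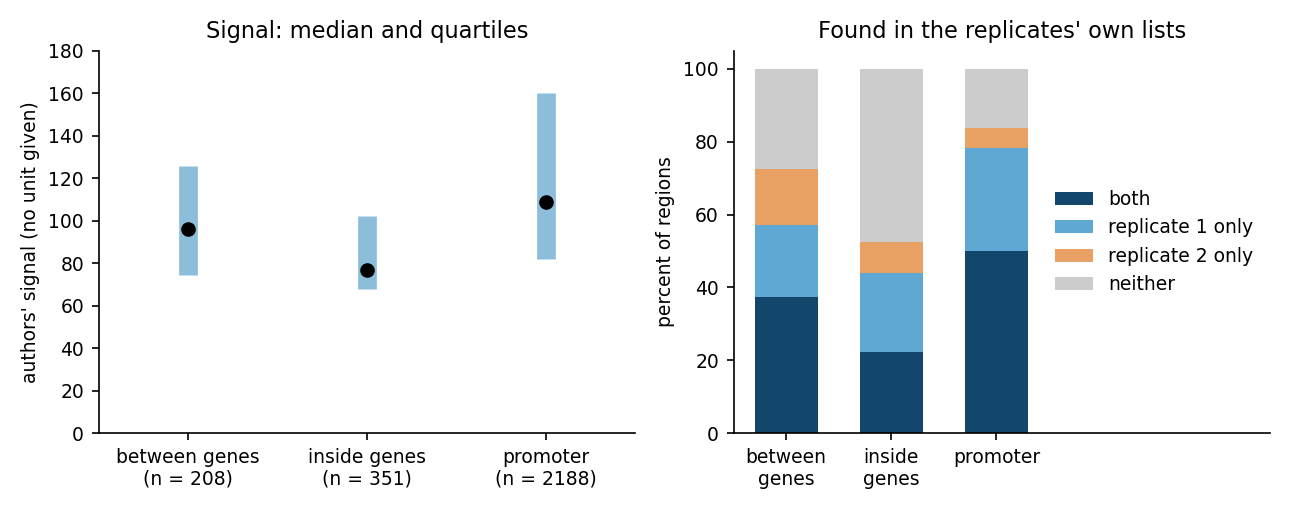
Left, median (point) and quartiles (bar) of the authors' signal for regions between genes, inside genes and at promoters; the medians are 95.9, 76.7 and 109. Right, percent of each kind found in both replicates' own lists, in 1 of them or in neither, with 37.5%, 22.2% and 50.1% in both.

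The regions had a shorter median distance to a gene start than the bases open to them. The median distance to the nearest start was 1689 bp (quartiles 845 and 5010) against 5942 bp for the 36.5 Mb of bases that the rule would keep. Of the 208, 62 (29.8%) lay between 500 bp and 1 kb from a start, against 7.75% of those bases. At the far end, 19 (9.13%) were more than 10 kb from any start, against 35.5% of the bases. The ranked list of candidate regions, 137460 on the same chromosomes before the limit, gave a second comparison. Of its 27937 regions between genes 208 (0.745%) passed into the conservative list, against 2.00% of all ranked regions, 0.407% of those inside genes and 9.41% of those at promoters. The median start distance of those 27937 was 4157 bp.

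The 4 regions nearest the 500 bp limit on the inside had signals from 81.7 to 197, and the 4 nearest on the outside from 13.2 to 175. Those just inside it were 501 bp from the start of Npc2b (signal 197), 501 bp from CG8861 (131), 506 bp from CG3505 (81.7) and 510 bp from MCU (122). Those just outside it were 500 bp from Sumo (62.8), 496 bp from Rcd2 (175), 490 bp from CG6885 (13.2) and 484 bp from RpS23 (83.9).

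Many regions lay just past the end of a gene. A count chosen after its values were seen found 77 of the 208 (37.0%, interval 30.4 to 44.0) within 500 bp past the annotated end of a flanking gene, against 6.23% of the bases that the rule keeps and 7.13% of ranked regions between genes. Within 200 bp there were 35 (16.8%) against 2.85% of the bases, and within 1 kb 89 (42.8%) against 10.9%. Most stood at a narrow range of distances: 69 were over 100 and up to 400 bp past an end (33.2%, against 3.62% of the bases) and 5 were closer. The rule itself removes summits within 500 bp of a start, from both the regions and the bases. Among the 95 regions more than 2 kb from any start, 31 (32.6%) were within 500 bp of a gene end, against 2.53% of the bases that far out. Nearer to starts the contrast was smaller. It was 38.7% against 28.0% of the bases at 500 bp to 1 kb, and 43.1% against 16.3% at 1 to 2 kb.

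Several of the strongest regions were of this kind. The distance past the end was 183 bp for Ptp4E, 244 bp for CheB93a, 221 bp for CG6465, 269 bp for RpL17, 244 bp for cv-c, 120 bp for CG34435, 339 bp for Hr51, 236 bp for tara and 195 bp for blo. In all 10 of the strongest 20 and 30 of the strongest 52 regions lay within 500 bp of an end, against 15, 17 and 15 in the 3 weaker sets of 52 regions. The 77 regions had a median signal of 106, against 88.2 for the other 131. Of the 17 regions with ACTGCTTG, 11 lay within 500 bp past a gene end, and so did 14 of the 37 with the overlapping 8-mers and 4 of the 12 with TGCATACTT, against 48 of the 140 with none of these.

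**Figure D4:**
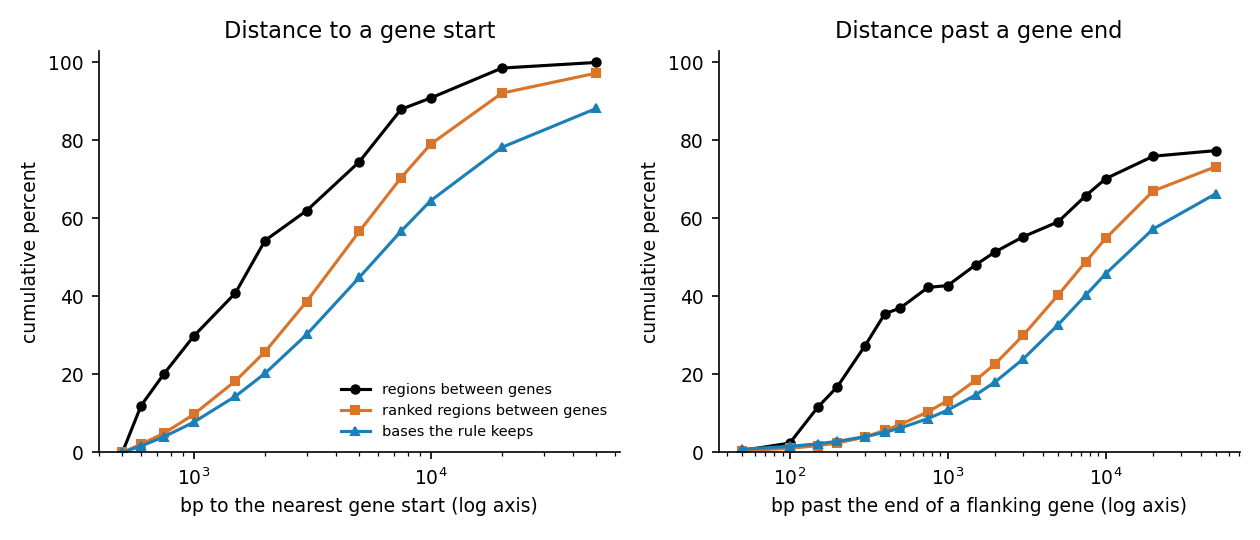
Cumulative percent of the 208 regions between genes, of the ranked regions between genes and of all bases that the rule keeps, by bp to the nearest gene start (left) and by bp past the end of a flanking gene (right), both on log axes. On the right the regions reach 37.0% at 500 bp against 7.13% of ranked regions and 6.23% of bases; the curves end below 100% because gaps between 2 starts have no gene end.

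Orientation of the flanking genes was close to that of the DNA itself. In 115 regions (55.3%, interval 48.3 to 62.2) the flanking genes ran in tandem, in 48 (23.1%, 17.5 to 29.4) they converged and in 45 (21.6%, 16.2 to 27.9) they diverged. The bases that the rule keeps were 50.5% tandem, 25.5% convergent and 20.3% divergent, and 3.73% were at chromosome ends, where no region lay. Median signals were 95.6 in tandem, 96.3 in convergent and 88.9 in divergent gaps. The gaps had a median length of 6897 bp, the summits were a median of 695 bp from the nearer and 5485 bp from the farther flanking gene, and both flanking genes were protein-coding for 139 regions (66.8%, against 48.1% of the bases).

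The 10 regions farthest from a start ran from 13671 to 48493 bp. The farthest lay between Marf1 and RpL5, which encodes a large-subunit ribosomal protein, with a signal of 83.8. The tandem repeat beside CG42402 was next at 25000 bp. The region between CG43759 and Diedel3 was 21653 bp from a start but 160 bp past the end of CG43759 (signal 70.1), and the one between nompC, a mechanosensory channel gene, and lncRNA:CR42850 was 15026 bp from a start but 288 bp past the end of nompC (75.1). The others were beside oc, a head homeobox gene, and Caf1-180 (18128 bp, 88.8), rpr, a cell death gene, and lncRNA:CR46215 (14943 bp, 64.7), lncRNA:CR42836 and CG5023 (14621 bp, 82.8), a pair beside CG10651 and CG13970 (14401 bp with 103 and 13875 bp with 184), and CG10651 and lncRNA:CR40341 (13671 bp, 104). For the region beside oc no signal could be read in replicate 2.

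Most regions were alone in their gap. The 208 regions lay in 198 gaps, 189 of which held 1 region, 8 held 2 and 1 held 3. The 3 were in the 13513 bp between Jhbp1, a gene related to juvenile hormone binding proteins, and CG14662, with signals of 125, 81.4 and 67.0. Those with 125 and 67.0 overlap, with summits 202 bp apart. The pairs of highest summed signal were between tara and bor (170 and 122), CG13970 and CG10651 (184 and 103), asRNA:CR44018 and CG6465 (197 and 65.4), and lncRNA:CR44761 and Ppa (163 and 60.9). In all, 4 regions overlapped another of the 208, so they share sequence. The median distance to the next region of the whole list was 13614 bp, and 62 regions had one within 5 kb.

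A minority of neighbouring genes had a promoter region of their own in the list. For 40 of the 208 regions (19.2%, interval 14.1 to 25.3) the gene with the nearest start had a promoter region in the list, against 36.8% for regions inside genes and 18.05% of protein-coding genes. The share depends on the setting: it was 12.7% without replicate 1 and 9.68% for signals above the list median. It was 42.3% when a promoter region could lie up to 1 kb from the start. However, 62 of the 208 regions themselves lie within 1 kb of a start, so the 42.3% cannot be set against the shares above. How far these 62 raised it was not tested. At least 1 flanking gene had a promoter region for 68 regions (32.7%), and both did for 5. Of the bases that the rule keeps, 12.4% had at least 1 such flanking gene. That figure counts each gap by the bases it holds, so it is not a rate per gap or per gene. Counted per gene, 15.7% of all genes had a promoter region, and each region has a flanking gene on either side. Whether 32.7% exceeds what that rate would give was not tested. For the 77 regions within 500 bp past a gene end, only the gene with the nearer end was counted. Of these genes 18 of 77 (23.4%, interval 14.5 to 34.4) had a promoter region. The share was 15.3% for genes that end at any gap with bases that the rule keeps.

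Genes of 9 lists of developmental regulators flanked 23 regions (11.1%, interval 7.14 to 16.1), and 4.996% of the bases that the rule keeps lie beside such genes. A flanking gene borders the gap and can lie far from the region, so the distance to it is given below. The lists were read by symbol, and each gave few regions. Over all lists of symbols, the boundary protein and cell surface lists included, 213 of 227 listed symbols were found. Among the 9 lists, only dorsoventral and growth factor signalling had an interval (0.526 to 4.85) above its share of the bases. For each of the others the interval held that share. Dorsoventral and growth factor signalling genes had 4 (1.92%, against 0.392% of the bases). The first lay 4469 bp from Wnt4 and 25519 bp from wg (178), and another 387 bp from the Wnt receptor gene fz2 (133). The others were 24132 bp from the EGF receptor ligand gene vn (128) and 8613 bp from sog, a BMP antagonist gene (105). Their nearest starts were those of CG5568 (1705 bp) and Chsy (1136 bp). Segmentation genes had 4 (1.92%, against 1.23%), of which 1 was the region between Wnt4 and wg. Another was 1554 bp from the homeobox gene en (95.6). In 1 gap 2 regions (142 and 67.7) were 16255 and 12638 bp from the gap gene kni. The start nearest to these 2 was that of CG34260, at 2467 and 6084 bp. Hormone response genes had 3 (1.44%, against 0.396%). They were 1163 bp from Kr-h1, 339 bp from Hr51 and 1656 bp from the ecdysone-induced gene Eip75B (104). Appendage genes had 4 (1.92%, against 1.31%). The strongest were 11730 bp from bab2 (126), 12175 bp from disco-r (116) and 1042 bp from B-H2 (81.6). The region flanked by bab2 was 582 bp from the start of CG13912, and that flanked by disco-r 946 bp from the start of CG42353.

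Hox genes had 2 regions (0.962%, interval 0.117 to 3.43, against 0.15% of the bases). They were 236 bp from Ubx (108) and 11573 bp from Dfd (87.7), genes that specify segments along the body. The start nearest to the second was that of lncRNA:CR43435, at 1311 bp. Neural genes had 2 (0.962%, against 0.795%), 303 bp from eya (146) and 716 bp from so (98.8), which act together in the eye. Mesoderm genes had 2 (0.962%, against 0.315%). One was 259 bp from zfh1 (106). The other lay between tin (4337 bp) and bap (2573 bp), genes of heart and gut muscle (82.9). Genes of the GATA and gut list had 3 (1.44%, against 0.453%). They were 9626 bp from grn (113), 1332 bp from srp (87.4) and 208 bp from bowl (57.0). Ribosomal protein genes had 3 (1.44% of the regions, against 1.26% of the bases), at RpL17, RpS27 (89.2) and RpL5, and were at 3.73% without replicate 1. Cell surface genes had 2 (0.962%, against 0.904%, and 0 without replicate 2). One lay between CadN (6501 bp) and CadN2 (2130 bp), with a signal of 105. The other was 4916 bp from 18w (68.7). Transfer RNA genes had 4 (1.92%, against 1.55%). The strongest were 977 bp from tRNA:Val-CAC-1-1 (134), 9795 bp from tRNA:Pro-AGG-1-2 (73.2) and 6103 bp from tRNA:Phe-GAA-1-7 (72.1). The Enhancer of split, boundary protein, histone and microRNA lists had 0 regions, and such genes lie beside 0.0483%, 0.00818%, 0.115% and 1.20% of the bases. At such shares 0 of 208 says little about these genes. Long non-coding RNA genes flanked 62 regions (29.8%) against 39.6% of the bases, the strongest at Kr-h1, Ptp4E and bs.

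By chromosome arm, 3R held 59 regions, 3L 44, 2L 43, 2R 40, X 21 and 4 held 1. Per Mb of bases that the rule keeps this was 7.69 on 3R, 6.40 on 2L, 5.37 on 2R, 4.85 on 3L, 4.08 on 4 and 3.95 on X. Only 1 region had its summit in an annotated transposable element.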

How the data were processed

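Whole-embryo ChIP-seq regions of 2 biological replicates of 1 line were used as deposited on dm6, per the labels. Nothing more says whether the replicates came from separate collections. The authors deposited ranked and thresholded lists, per the labels; which aligner and which peak caller made them is not given in the sources used. The signal of each region and the −log10 of its irreproducible discovery rate are values the authors deposited; that −log10 value was at least 2.001 in each region reported. Signals of single replicates come from their own ranked lists (strongest overlapping region). A control immunoprecipitation was not analysed here.

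Genes and starts came from Ensembl release 115 without transposable elements, and sequence from RefSeq. Bases the rule keeps are those more than 500 bp from any start and in no gene. Shares have exact Clopper-Pearson 95% intervals, which cover counting error only, and depth is unknown. No test was run, since 1 group of 2 samples allows none. Named genes flank the 20 strongest regions, the 10 farthest from a start, the 5 fullest gaps and up to 3 regions per gene list. The members, lists and sequences were chosen with earlier results of these data known; gene ends and leading 8-mers were counted after values were seen. Alternatives were other lists, limits, annotations, windows and overlaps. The functions were tested on simulated regions. Python 3.11.15 was used with numpy 2.4.6, pandas 2.3.3 and scipy 1.17.1.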

Additional observations from a re-analysis of the deposited data

How the results depend on the processing

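Without replicate 1 or without replicate 2, from the other replicate's own list, the number of regions between genes was 134 to 156 and their share 5.57% to 8.50%. The median start distance was 1619 to 2424.5 bp, the median signal 57.5 to 60.3 and the share whose nearest start had a promoter region 12.7% to 22.4%. The share within 500 bp past a gene end was 39.6% to 39.7%, and the share with the overlapping 8-mers 16.4% to 18.6%. From pooled reads the median signal was 80.8 and the 8-mer share 12.8%. With signals above the list median there were 93 regions, of which 86.0% were in each replicate's list, 25.8% held the 8-mers, 44.1% lay past a gene end and 9.68% had a promoter region at the nearest start. With starts within 1 kb removed the share was 5.31%, the start distance 3408 bp and the convergent share 31.5%. With protein-coding genes only there were 313 regions (11.4%), 2466 bp from a start, and replicate 1 held 65.8%. With promoter regions up to 1 kb from a start 42.3% of nearest starts had one, a limit within which 62 of the 208 regions themselves lie. Within 25 bp of the summit 8.17% held the 8-mers, and within 200 bp past a gene end lay 16.8%. With the RefSeq annotation the 208 regions were the same 208. Of 374 recomputed values, 24 main values and 30 of single motifs or gene lists moved beyond their interval (counts of regions, by over 1.5 times); apart from fewer regions or samples, the cause was not tested. No paired analysis was possible because there is 1 group. Depth is unknown, so a region absent from a list may have been missed.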
